A study of Mus musculus with 8 samples.

Results

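The hair shaft and its inner root sheath are built from a small set of structural proteins, and 80 of the 34745 genes in the table encode them or an enzyme that modifies them. They were chosen by symbol: every keratin-associated protein gene (Krtap, 57 genes), 21 keratins (Krt25 to Krt28, Krt31 to Krt36, Krt71 to Krt75 and Krt81 to Krt86), trichohyalin (Tchh) and Padi3. No measured value entered that choice. Of the keratins that the choice would include, Krt85 and Krt87 are not analysed here.

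Whole skin of mice 16 weeks old gave 4 libraries labelled NcstnΔKC and 4 labelled normal. Both groups are described as carrying floxed Ncstn (Ncstn flx/flx) and Krt14 CreER+/-, a tamoxifen-activated recombinase driven by the promoter of the basal keratinocyte keratin Krt14. NcstnΔKC mice were given tamoxifen by gavage from 8 weeks of age, at 20 mg/kg daily for 5 days and then every 10 days, whereas normal mice were given corn oil. The genotype label of the normal mice reads wildtype instead, so that the genotype of the controls is given in 2 ways. Ncstn encodes nicastrin, a subunit of γ-secretase, the protease that releases the active part of Notch receptors. Only keratinocytes can lose the gene in this model, and whole skin holds many other cells. The tissue is described as lesional, the stage of the hair cycle is not recorded, and the labels do not say where on the body the skin was taken.

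Hair follicles cycle between growth (anagen), regression (catagen) and rest (telogen). During growth, matrix cells of the bulb form concentric layers. The inner root sheath makes its own keratins and trichohyalin, while the hair cortex and cuticle first make hair keratins and then the Krtap proteins, which are crosslinked to the keratin filaments by disulfide bonds. A resting follicle makes little of either. Padi3 is a peptidylarginine deiminase, an enzyme that converts arginines of trichohyalin to citrulline before the protein is crosslinked.

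Before the expression values, the promoters of 4 of the genes are shown, because most of the genes share one feature there. RefSeq start sites on GRCm38.p6 were matched for 68 of the 80 genes, and the 250 bases before each start were searched on both strands for the core of the box bound by TATA-binding protein, TATAAA, and for a core motif of the LEF and TCF factors, CTTTGAA. The first motif occurred in 53 of the 68 windows (77.9%) and in 12.4% of the 32851 windows of all genes. On the sense strand and starting 21 to 50 bases before the start, it occurred in 43 of 68 (63.2%) and in 2.3% of all windows. The LEF/TCF motif occurred in 12 of 68 (17.6%) and in 4.5% of all windows, and 4 of these 12 were type I hair keratins, of which 5 had a window. The following windows are written 5′ to 3′ on the gene's strand, with both motifs, on either strand and including overlapping matches, in capitals, for an inner root sheath keratin (Krt25), a hair keratin with both motifs (Krt31), a Krtap gene with both (Krtap1-5) and Krt75, which has neither.
Krt25, chr11:99322952-99323201, minus strand: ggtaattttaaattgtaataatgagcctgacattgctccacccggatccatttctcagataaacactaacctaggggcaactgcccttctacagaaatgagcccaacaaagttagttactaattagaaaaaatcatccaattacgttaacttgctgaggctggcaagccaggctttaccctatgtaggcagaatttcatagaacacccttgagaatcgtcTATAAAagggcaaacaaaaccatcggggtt
Krt31, chr11:100050552-100050801, minus strand: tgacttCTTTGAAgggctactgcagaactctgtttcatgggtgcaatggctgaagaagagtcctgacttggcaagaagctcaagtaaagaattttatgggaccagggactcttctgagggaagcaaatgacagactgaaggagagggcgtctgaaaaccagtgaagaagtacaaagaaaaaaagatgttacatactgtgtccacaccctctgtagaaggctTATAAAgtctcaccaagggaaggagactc
Krtap1-5, chr11:99581017-99581266, minus strand: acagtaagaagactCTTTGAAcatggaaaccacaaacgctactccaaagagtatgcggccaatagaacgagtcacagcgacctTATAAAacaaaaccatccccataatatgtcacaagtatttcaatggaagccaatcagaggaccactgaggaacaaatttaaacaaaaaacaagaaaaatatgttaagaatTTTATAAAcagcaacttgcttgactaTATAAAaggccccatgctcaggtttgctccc
Krt75, chr15:101573905-101574154, minus strand: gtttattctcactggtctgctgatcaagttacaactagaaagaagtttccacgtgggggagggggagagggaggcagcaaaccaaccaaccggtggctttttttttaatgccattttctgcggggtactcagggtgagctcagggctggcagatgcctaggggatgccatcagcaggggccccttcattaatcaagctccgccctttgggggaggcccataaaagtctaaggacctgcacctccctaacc
In Krt25, Krt31 and Krtap1-5 the first motif starts 30, 29 and 31 bases before the start. The LEF/TCF motif lies 244 bases before the start of Krt31 and 236 before that of Krtap1-5. Many of these genes are tandem copies with related promoters, so the windows are not independent, and a match in the letters is not evidence of binding.

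The genes lie in a few clusters. Of the 57 Krtap genes, 25 lie on chromosome 16 (mm10, 88610709 to 89571183), 23 on chromosome 11 (99550130 to 99993994), 5 on chromosome 7, and 2 each on chromosomes 1 and 10. The 21 keratins are split between chromosome 11, with 11 genes, and chromosome 15, with 10. Copies resemble each other: 34 of the 80 share over 20% of their 31-base stretches with another gene, with a highest value of 89.8% for Krtap4-13. Krt81, Krt83 and Krt86 share 44.6%, 52.4% and 50%. How reads that map to several places were counted is not stated, so the values of these 34 genes taken singly are uncertain. Besides those 3 they include Krt31 (38.9%), Krt33a (28.9%), Krt33b (36.4%), Krt34 (42.0%), Krtap3-2 (30.9%), Krtap4-1 (26.8%) and Krtap4-2 (25.8%), whereas Krtap7-1, Krtap14 and Tchh share 0%. The annotated intervals of Krtap14 and Krtap15 overlap on opposite strands, and exons of Krtap15 overlap 4930553J12Rik on the same strand. Krt75, Krt32 and Krtap24-1 overlap Gm44460, Gm11571 and Gm49688 on the other strand.

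Library depth ranged from 5835422 to 12893174 counts, and all 4 NcstnΔKC libraries were deeper than the normal ones. Ncstn itself was at 60.7, 61.9, 61.3 and 58.4 CPM in normal replicates 1 to 4 and at 66.8, 50.2, 57.8 and 56.2 CPM in NcstnΔKC replicates 1 to 4, and the groups overlapped. Counts per gene over whole skin include other cells and exons outside the floxed part, so this value does not check the labels. All libraries are labelled male, but in replicates 3 and 4 of each group Xist had 22304 to 37109 counts, and 4 genes of the Y chromosome had 0 to 3 in all. In the other 4 libraries Xist had 4 to 9 counts and those 4 genes 886 to 4453. These libraries go against their label, and the groups are balanced for it. Normal replicate 2 stood apart from every other library for the genes described here, and tests of the 80 genes and the changes of other genes that it moved by over 1.5 times are given with and without it. CPM below are counts scaled to the TMM-adjusted library size.

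The 80 genes were strongly present in 1 library. Their summed level was 190, 52700, 92.8 and 589 CPM in normal replicates 1 to 4, and 62.8, 62.6, 51.2 and 50 CPM in NcstnΔKC replicates 1 to 4. As a share of all counts this was 4.48% in normal replicate 2 (95% exact binomial interval 4.47 to 4.50%) and 0.0537% in normal replicate 4 (0.0522 to 0.0553%). The other 6 libraries lay between 0.00577% and 0.0185%. Intervals of this kind cover counting error only, since reads are not independent molecules. Krt75 by itself made up 44.1, 47.8, 42.1 and 39.2 CPM of the summed level in NcstnΔKC replicates 1 to 4. Tchh, Krt75, Krt84, Krt32 and Krtap3-2 were then left out, a choice made after their values were seen. The other 75 genes summed to 25.7, 23600, 4.09 and 196 CPM in normal replicates 1 to 4. In NcstnΔKC replicates 1 to 4 they summed to 2.43, 1.57, 2.0 and 2.28 CPM.

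**Figure D1:**
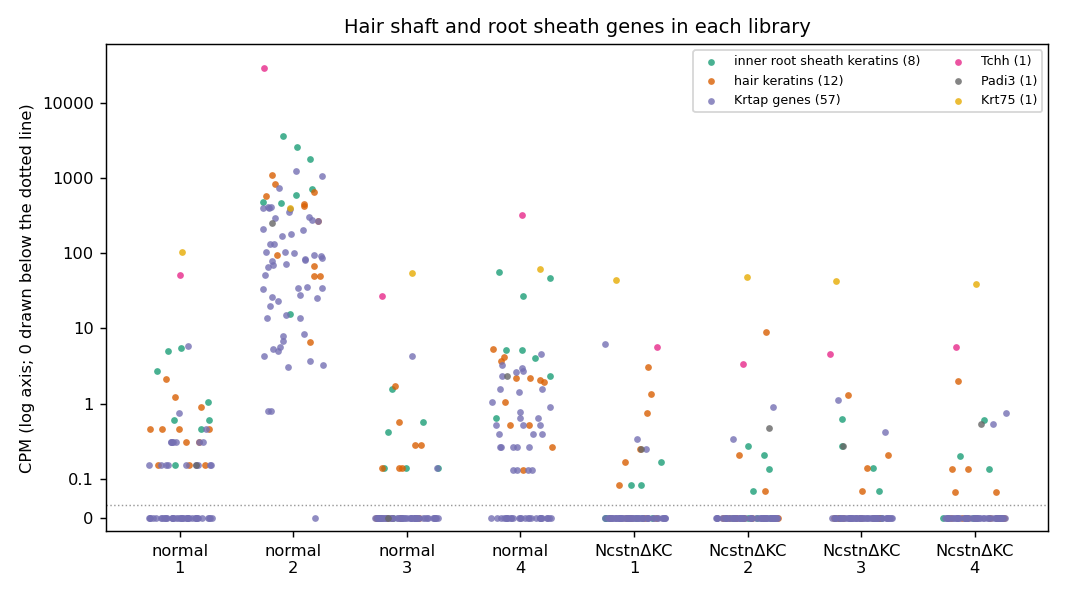
CPM of each of the 80 genes (points, colour by class) in each library on a log axis, with genes at 0 counts drawn below the dotted line. Normal replicate 2 holds 79 of the genes at a level above that in any other library, and normal replicate 4 comes second with 52 genes detected.

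All 79 genes with a count had their highest CPM in normal replicate 2. In that library 73 of them had at least 90% of their counts and 51 at least 99%. The only gene without a count in any library was Krtap13. In normal replicates 1, 3 and 4 a count was found for 42, 17 and 52 of the 80 genes, and in NcstnΔKC replicates 1 to 4 for 15, 12, 13 and 13. Over the whole table, 46 genes with at least 100 counts had at least 99% of them in normal replicate 2, and 37 of those 46 (80.4%) belonged to the set. Among the other 9, named after their values were seen, were Gprc5d (0.304, 280, 0.424 and 0.912 CPM in normal replicates 1 to 4, and 0 in all NcstnΔKC libraries), an orphan receptor of hair-forming cells, and 6 genes with predicted (Gm) names.

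Trichohyalin, which fills the inner root sheath and medulla with granules, was the most abundant of these transcripts. Tchh (ENSMUSG00000052415, chr3:93442330-93449077) was at 51.8, 28400, 27.2 and 324 CPM in normal replicates 1 to 4 and at 5.62, 3.35, 4.49 and 5.64 CPM in NcstnΔKC replicates 1 to 4. Every normal library was above every NcstnΔKC library. Per length it reached 4140 FPKM in normal replicate 2, rank 7 of all genes there, against 50.8 in normal replicate 4. It fell by 10.55 ± 2.55 (n = 4 against 4) on the log2 scale in NcstnΔKC, with an adjusted p of 0.00989 in edgeR's quasi-likelihood test. Here and below, the value after ± is an approximate standard error, the log2 change divided by the square root of the test's F statistic. Without normal replicate 2 the log2 change was -4.75, with an adjusted p of 0.0037. In whole skin, fewer cells of a type and less RNA per cell cannot be told apart, here and for every gene below.

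Padi3 was likewise highest in normal replicate 2 and next in normal replicate 4. It was at 0.152, 247, 0 and 2.35 CPM in normal replicates 1 to 4 and at 0.252, 0.478, 0.277 and 0.537 CPM in NcstnΔKC replicates 1 to 4. The groups overlapped, since normal replicates 1 and 3 were below every NcstnΔKC library, and the gene was too low for the test.

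The 8 inner root sheath keratins pair as type I (Krt25 to Krt28) and type II (Krt71 to Krt74) filaments of the sheath layers. Their summed level was 16.1, 10200, 2.96 and 146 CPM in normal replicates 1 to 4 and 0.336, 0.683, 1.11 and 0.94 CPM in NcstnΔKC replicates 1 to 4. Among the normal libraries, replicate 4 was second and replicate 3 lowest. Krt71, a type II keratin of all sheath layers, was at 5.01, 3640, 0.565 and 55.5 CPM in normal replicates 1 to 4 and at 0, 0.137, 0.277 and 0.201 CPM in NcstnΔKC replicates 1 to 4. Krt25, one of its type I partners, was at 5.47, 2570, 0.141 and 46.4 CPM in normal libraries and had no count in any NcstnΔKC library. Krt27 was at 2.73, 1760, 0.424 and 26.8 CPM in normal libraries and at 0 to 0.138 CPM in NcstnΔKC libraries. These 3 genes did not overlap between the groups, for Krt25 by 1 count in normal replicate 3.

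Krt28 (ENSMUSG00000055937, chr11:99364872-99374903) was the only sheath keratin to pass the filter on low counts. It was at 1.06, 594, 1.55 and 5.21 CPM in normal replicates 1 to 4 and at 0.168, 0, 0.0691 and 0 CPM in NcstnΔKC replicates 1 to 4, and the groups did not overlap. The log2 change was -11.15 ± 2.86 (edgeR adjusted p = 0.0128), and -5.27 without normal replicate 2 (adjusted p = 0.00363). Because NcstnΔKC libraries were at or near 0, the size of this change depends on the prior count of the fit. The 4 other sheath keratins were Krt26, Krt72, Krt73 and Krt74. They reached 475, 715, 466 and 15.5 CPM in normal replicate 2 and at most 5.08 CPM elsewhere. Krt73 was at 0.0839 to 0.622 CPM in NcstnΔKC libraries, a range that overlaps the normal libraries at 0.141 and 0.456 CPM.

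The companion layer keratin Krt75 behaved unlike the sheath keratins. It marks the single cell layer between the inner and outer root sheath. Krt75 (ENSMUSG00000022986, chr15:101563345-101573904) was at 104, 395, 54.9 and 60.5 CPM in normal replicates 1 to 4 and at 44.1, 47.8, 42.1 and 39.2 CPM in NcstnΔKC replicates 1 to 4. All 8 libraries expressed it, and normal replicate 2 held 33.1% of its counts. It fell by 1.82 ± 0.60 on the log2 scale (edgeR adjusted p = 0.0343), and the change was -0.70 without normal replicate 2 (adjusted p = 0.0415). With total counts in place of TMM scaling the change was -1.5 and did not pass the test (adjusted p = 0.0581). Leaving out any 1 NcstnΔKC library also took it out of the calls, with adjusted p of 0.0594 to 0.0777.

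The 12 hair keratins of cortex and cuticle summed to 7.14, 4530, 3.25 and 24.1 CPM in normal replicates 1 to 4. In NcstnΔKC replicates 1 to 4 the sum was 5.71, 9.09, 1.73 and 2.42 CPM, which overlapped the normal libraries. Krt84 made up 3.10, 8.81, 1.31 and 2.01 CPM of that NcstnΔKC sum. Without Krt32 and Krt84 the hair keratins had 31, 21965, 7 and 160 counts in normal replicates 1 to 4. NcstnΔKC replicates 1 to 4 then had 15, 1, 3 and 4 counts. Krt86, a type II cortex keratin, was at 0.456, 1090, 0.282 and 5.34 CPM in normal libraries and at 0.168, 0, 0 and 0.0672 CPM in NcstnΔKC libraries. Krt81, its close copy, was at 0.456, 815, 0.141 and 3.65 CPM in normal libraries and had no count in NcstnΔKC libraries. Krt83 was at 1.21, 566, 0.282 and 4.17 CPM against 0 to 0.134 CPM. Among type I keratins, Krt31 was at 0.911, 453, 0.141 and 2.21 CPM in normal libraries and at 0 to 0.138 CPM in NcstnΔKC libraries. Those 4 genes did not overlap between the groups by CPM, in Krt81 by 1 count in normal replicate 3. For Krt31 the margin came from the scaling, with 1 count in normal replicate 3 (0.141 CPM) and 2 in NcstnΔKC replicate 3 (0.138 CPM). By FPKM the order of these 2 libraries was reversed, at 0.073 and 0.0998.

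Most other hair keratins had their counts almost entirely in normal replicate 2. Krt33a reached 646 CPM there, Krt34 424, Krt33b 268, Krt35 93.9 and Krt36 6.65. All of these were at 0 in normal replicate 3. Krt33a was the one of them detected in a NcstnΔKC library, at 0.755 CPM in replicate 1. Krt82, a cuticle keratin, was at 66.3 CPM in normal replicate 2 and at 0.141 to 0.261 CPM in the other normal libraries, overlapping the NcstnΔKC libraries (0 to 0.252 CPM).

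Krt32 and Krt84 differed from the other hair keratins in having a count in every NcstnΔKC library. For Krt32 these were 16, 3, 3 and 2 counts in replicates 1 to 4, near the floor in the last 3. Krt84 is known from nail and from filiform papillae of the tongue as well as hair. Krt32 (ENSMUSG00000046095, chr11:100080848-100088226), a type I cuticle keratin, was at 2.13, 50, 1.69 and 2.21 CPM in normal replicates 1 to 4 and at 1.34, 0.205, 0.207 and 0.134 CPM in NcstnΔKC replicates 1 to 4. It fell by 4.90 ± 1.40 on the log2 scale (edgeR adjusted p = 0.0199). Without normal replicate 2 the change was -2.08 and just missed the threshold (adjusted p = 0.0503), although the groups still did not overlap. Leaving out NcstnΔKC replicate 2, 3 or 4 also took it out of the calls, with adjusted p of 0.0535, 0.056 and 0.0515.

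Krt84 (ENSMUSG00000044294, chr15:101525026-101532820) was at 0.304, 50, 0.565 and 1.04 CPM in normal replicates 1 to 4 and at 3.10, 8.81, 1.31 and 2.01 CPM in NcstnΔKC replicates 1 to 4. Every NcstnΔKC library was above normal replicates 1, 3 and 4 and below normal replicate 2. With all libraries the log2 change was -1.72 ± 1.39, which did not pass the test (edgeR adjusted p = 0.338). Without normal replicate 2 it was 2.60 and passed in the opposite direction (adjusted p = 0.0339). Only 0.3% of its 31-base stretches are shared with another gene.

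**Figure D2:**
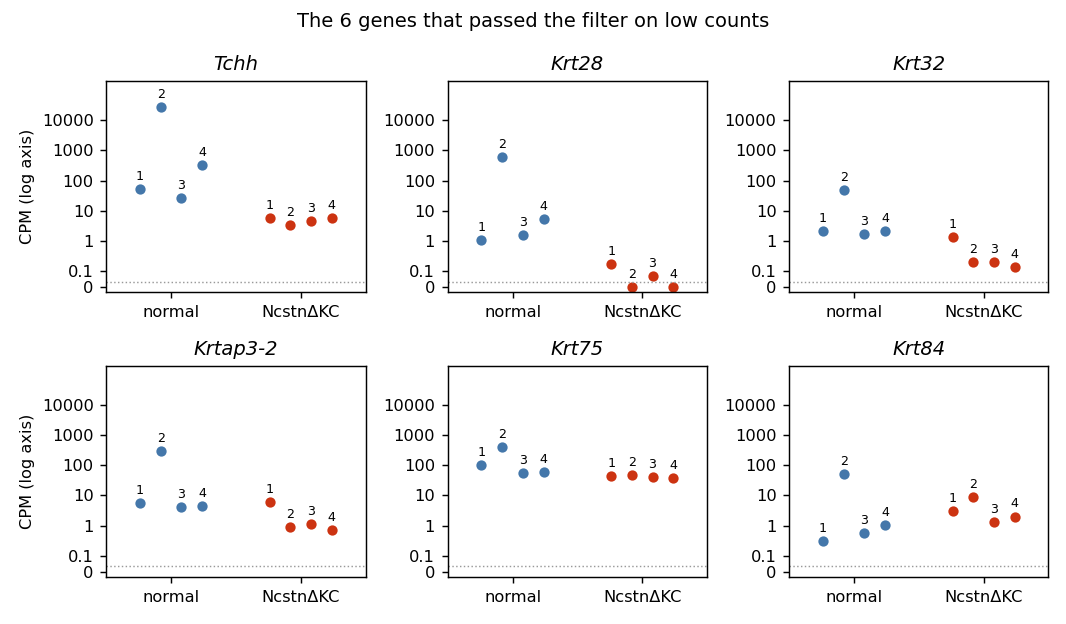
CPM on a log axis of the 6 genes that passed the filter on low counts, with 1 point per library labelled by replicate number and 0 drawn below the dotted line. Normal replicate 2 is the highest point in each panel, and Krt84 has NcstnΔKC points (1.31 to 8.81 CPM) above those of the other 3 normal libraries.

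The 57 Krtap genes were grouped by the amino acids their codons specify: 16 glycine-tyrosine rich, 20 high-sulfur, 20 ultra-high-sulfur (at least 30% cysteine) and Krtap19-9a, which could not be classified. The class called high-sulfur is the remainder, with 4.0 to 29.8% cysteine. All 57 genes together summed to 10.5, 8950, 4.38 and 31.7 CPM in normal replicates 1 to 4 and to 6.71, 1.23, 1.52 and 1.28 CPM in NcstnΔKC replicates 1 to 4. Those groups overlapped through normal replicate 3 and NcstnΔKC replicate 1. Normal replicate 2 had counts for 56 of the 57, normal replicate 4 for 29, normal replicate 1 for 19 and normal replicate 3 for 2. NcstnΔKC libraries had counts for 2 or 3.

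Glycine-tyrosine rich Krtap genes, which encode small proteins of the cortex, summed to 1.21, 3520, 0 and 7.69 CPM in normal replicates 1 to 4. No NcstnΔKC library had a count for any of the 16, with a limit of 2.33e-05% to 2.52e-05% of a library's counts (3 counts). Krtap7-1 was at 0.304, 1240, 0 and 3.0 CPM in normal libraries, and Krtap22-2 at 0.152, 734, 0 and 1.56 CPM. Per length these 2 genes reached 1700 and 1640 FPKM in normal replicate 2, ranks 14 and 15 of all genes in that library, next to Krt71 at rank 17 with 1420 FPKM. Krtap19-5 and Krtap8-1 reached 408 and 381 CPM there. Krtap8-1 was also found in normal replicate 4, at 1.43 CPM, and Krtap19-5 in normal replicate 1, at 0.152 CPM.

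Ultra-high-sulfur Krtap genes, the cysteine-rich proteins of cuticle and cortex, summed to 1.06, 1600, 0 and 12.8 CPM in normal replicates 1 to 4 and were at 0 in all NcstnΔKC libraries, with the same limit. The 2 most abundant, Krtap4-1 and Krtap4-2, were at 0.304, 296, 0 and 3.26 CPM and at 0.304, 269, 0 and 2.61 CPM. Their near copies of the Krtap4 group cannot be separated with certainty.

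High-sulfur Krtap genes summed to 8.2, 3810, 4.38 and 11.2 CPM in normal replicates 1 to 4 and to 6.71, 1.23, 1.52 and 1.28 CPM in NcstnΔKC replicates 1 to 4. Krtap1-5 was the highest, at 0.759, 1050, 0 and 2.35 CPM in normal libraries and 0 in NcstnΔKC libraries. Krtap3-1, Krtap14, Krtap15 and Krtap9-3 reached 404, 393, 391 and 356 CPM in normal replicate 2 and at most 1.04 CPM in any other library.

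Krtap3-2 made up most of the Krtap level in normal replicates 1 and 3 and in the NcstnΔKC libraries. Krtap3-2 (ENSMUSG00000069721, chr11:99555823-99556853) was at 5.77, 301, 4.24 and 4.56 CPM in normal replicates 1 to 4 and at 6.13, 0.888, 1.11 and 0.739 CPM in NcstnΔKC replicates 1 to 4. NcstnΔKC replicate 1 was thus above 3 of the 4 normal libraries. The log2 change was -5.18 ± 1.67 (edgeR adjusted p = 0.0325), and -1.11 without normal replicate 2, which did not pass (adjusted p = 0.256). Leaving out NcstnΔKC replicate 2, 3 or 4 gave adjusted p of 0.0798, 0.0822 and 0.08. Krtap12-1, described after its values were seen, was the only other Krtap gene with a count in all 4 NcstnΔKC libraries, at 0.336, 0.342, 0.415 and 0.537 CPM, while normal replicates 1 to 4 were at 0, 8.47, 0 and 0 CPM. It shares 30.2% of its 31-base stretches with another gene.

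**Figure D3:**
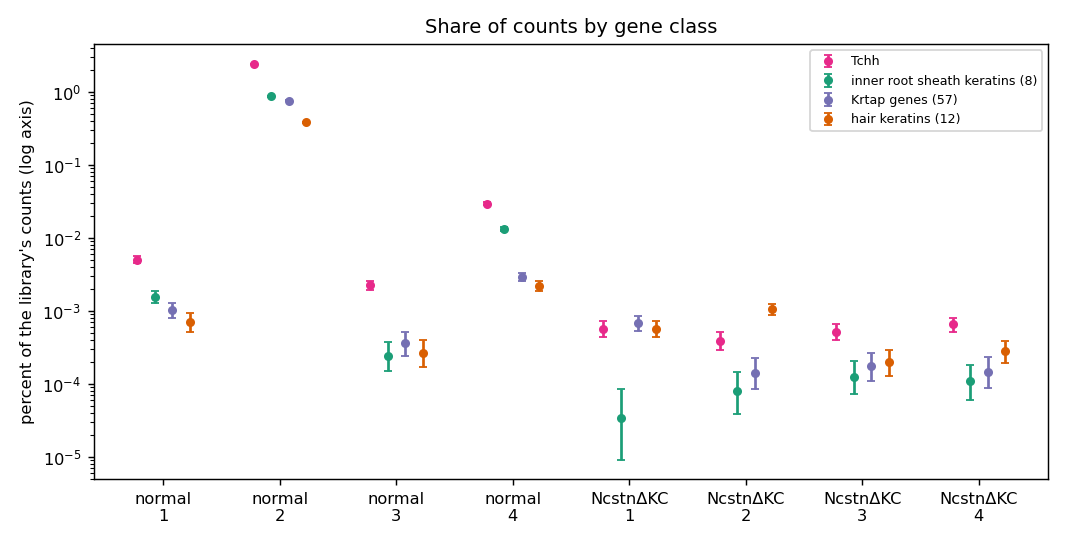
Percent of each library's counts (log axis) from Tchh, the 8 inner root sheath keratins, the 57 Krtap genes and the 12 hair keratins, with 95% exact binomial intervals as bars. Normal replicate 2 is highest in all 4 classes and normal replicate 4 second, while hair keratin and Krtap shares of normal replicate 3 fall among those of the NcstnΔKC libraries.

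Across the groups, 6 of the 80 genes passed the filter on low counts and 5 of them were lower in NcstnΔKC skin at an adjusted p under 0.05 (Tchh, Krt28, Krt32, Krtap3-2 and Krt75), and 0 were higher. Of all 15684 genes tested, 22.7% were lower and 21.4% higher (3555 and 3360 genes). That split depends on the scaling, with 2224 lower and 5323 higher on total counts and 11451 lower and 338 higher when scaled to basal keratinocyte genes, while 4 and 5 of the set remained lower. The other 74 were too low outside normal replicate 2 to be tested, and genes that pass such a filter mainly through 1 group are likely to differ, so the 5 of 6 is not support for a change in the set. With the filter dropped, 4 of the 79 genes with a count were lower (13.0% of 24750 genes were) and 0 higher (16.3% were). The 4 were Krt27, Krt71, Krt74 and Tchh. Leaving out normal replicate 2, 6 genes of the set were tested, of which 3 were lower (Tchh, Krt28 and Krt75) and 1 was higher (Krt84). Of all 16279 genes tested in that fit, 3158 were lower and 3515 higher.

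In 11 genes every normal library was above every NcstnΔKC library: Tchh, Krt75, the sheath keratins Krt25, Krt27, Krt28 and Krt71, and the hair keratins Krt31, Krt32, Krt81, Krt83 and Krt86. None had the opposite order. By FPKM the count was 9, since Krt31 and Krt75 then overlapped. Krt75 was at 13.7 FPKM in normal replicate 3 and at 13.6 to 17.0 FPKM in NcstnΔKC libraries. Among 24750 genes with a count, 15.9% were without overlap in the first direction and 14.5% in the second, so 11 of 79 is close to the background. Without normal replicate 3 the count was 34 of 79 in the first direction, against 18.1% of all genes. Without normal replicate 2 it was again 11 (19.1% of all genes), and Krt84 and Krtap12-1 were then higher in every NcstnΔKC library (16.8% of all genes were).

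In NcstnΔKC skin 62 of the 80 genes had no count in any library. The share of all genes without such a count was not computed, and normal replicate 3 by itself had a count for 17 of the 80. For 61 of them, with over 3 normal counts, the pooled normal level was divided by a floor of 3 counts over NcstnΔKC libraries. The floor allows for counting error on the NcstnΔKC side only. Normal counts were taken as observed, so the ratios are not strict lower bounds. They ran from 2.83-fold, for Krtap20-2 and Krtap5-1 with 4 normal counts each, to 9310-fold for Krt25, with a median of 293. With all libraries they rest mostly on normal replicate 2. Without it only 26 genes allowed a ratio, from 3.49-fold, on 4 counts, to 343-fold (again Krt25), with a median of 9.16.

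Normal replicates 2 and 4 differed by how much they held of each class. For genes with at least 10 counts in normal replicate 4, the CPM ratio of normal replicate 2 to normal replicate 4 had a median of 91.7 over 7 inner root sheath keratins, 204 over 7 hair keratins and 103 over 9 Krtap genes. Genes at or near 0 in normal replicate 4 give no such ratio, which leaves out most Krtap genes. Summed over all genes of a class, the ratio was 70.1 for the 8 sheath keratins, 188 for the 12 hair keratins and 283 for the 57 Krtap genes, so that the Krtap class was above the hair keratins by sums and below them by medians. The ratio was 87.6 for Tchh (84.2 to 91.2, counting error only), 105 for Padi3 and 6.53 for Krt75 (5.90 to 7.24). The classes were not uniform. Among sheath keratins Krt25, Krt27 and Krt71 had ratios of 55.4, 65.7 and 65.7, whereas Krt72, a keratin of the sheath cuticle, had 305 (193 to 515). Among Krtap genes, Krtap3-2 was at 66, Krtap4-1 at 90.9 and Krtap4-2 at 103, whereas Krtap7-1, Krtap1-5 and Krtap22-2 were at 414, 449 and 470. Krt32 had the lowest ratio of the hair keratins, 22.6, and Krt33a the highest, 330. Across the 79 genes with a count, the order by FPKM in normal replicate 2 and in normal replicate 4 had a Spearman rho of 0.71, a description over genes that share 2 libraries.

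**Figure D4:**
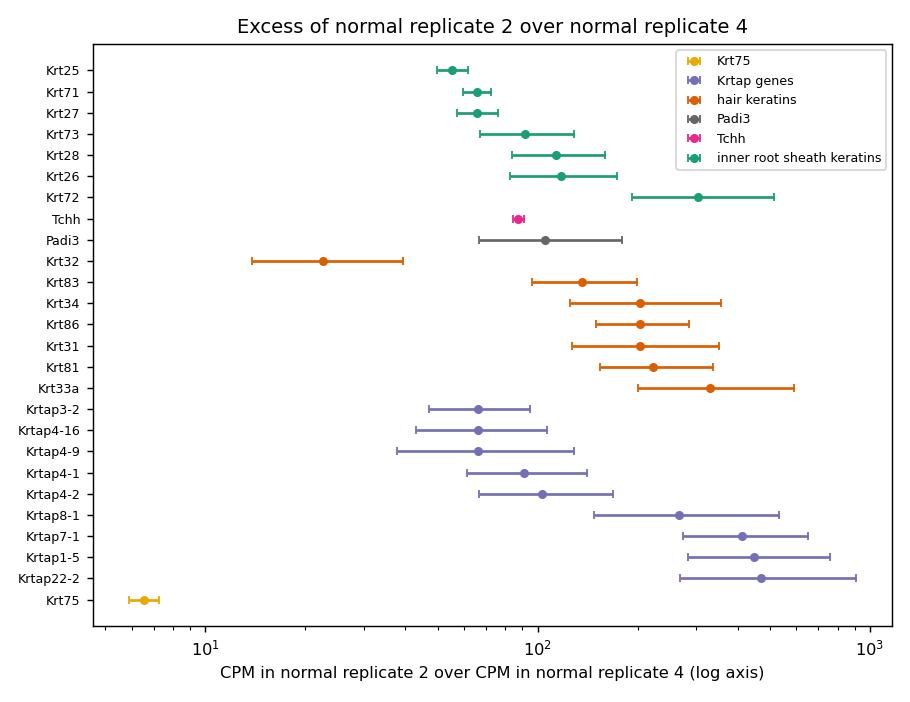
Ratio of CPM in normal replicate 2 to CPM in normal replicate 4 (log axis) for each gene with at least 10 counts in normal replicate 4, grouped by class, with 95% intervals from counting error. Krt75 lies at 6.53, Tchh at 87.6, and Krtap7-1, Krtap1-5 and Krtap22-2 at 414 to 470.

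The balance between sheath and shaft transcripts was also compared within each normal library. Of the counts of all sheath and hair keratins, the sheath took 69.3%, 69.3%, 47.7% (32.5 to 63.3%) and 85.8% in normal replicates 1 to 4. Krt32 and Krt84 were then left out because they had counts in every NcstnΔKC library, a choice made from these values. Without them the sheath took 77.4% in normal replicate 1 (69.4 to 84.1%), 69.8% in replicate 2 (69.5 to 70.1%), 75% in replicate 3 (55.1 to 89.3%) and 87.5% in replicate 4 (85.6 to 89.3%). Against Krtap genes without Krtap3-2 it took 77.4%, 54.2% (53.9 to 54.5%), 95.5% (77.2 to 99.9%, 22 counts) and 84.3% (82.3 to 86.3%). The sheath share was thus lower in normal replicate 2 than in normal replicate 4 in each measure, by more than counting error. NcstnΔKC libraries had 11 to 19 counts each of the keratins without Krt32 and Krt84. The sheath took 21.1% of them in NcstnΔKC replicate 1 (6.05 to 45.6%, 19 counts), below the interval of every normal library. Krt33a made up 9 of those 19 counts. In NcstnΔKC replicates 2 to 4 it took 90.9%, 84.2% and 77.8%, with intervals from 52.4% to 99.8% that overlap those of the normal libraries.

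Other genes of the follicle were described from lists of known function. Beside these, the median log2 change of all tested genes was -0.02. Of 16 transcription factors of hair differentiation, all were tested, 8 were lower and 2 higher in NcstnΔKC skin, with a median of -1.14, and 9 were highest in normal replicate 2. Without that library 7 were lower and 4 higher, with a median of -0.46. Scaled to basal keratinocyte genes 12 were lower and 0 higher, but 11451 of all 15684 genes were lower under that scaling and 338 higher. Hoxc13, which directly activates hair keratin genes, was at 14.9, 91.1, 7.2 and 6.51 CPM in normal replicates 1 to 4 and at 1.59, 2.60, 2.83 and 2.08 CPM in NcstnΔKC replicates 1 to 4. It fell by 3.69 ± 0.89 on the log2 scale (edgeR adjusted p = 0.00968), and the change was -2.0 without normal replicate 2 (adjusted p = 0.00481). Lef1, the Wnt-responsive factor of the hair matrix, was at 18.8, 107, 7.06 and 14.2 CPM against 1.93, 0.888, 1.31 and 2.08 CPM, and fell by 4.55 ± 0.89 (adjusted p = 0.00383), with a change of -3.05 without normal replicate 2 (adjusted p = 0.00146). Foxn1, whose loss causes nude mice, was at 11.7, 101, 8.33 and 10.4 CPM in normal libraries and 13.6, 9.16, 8.30 and 7.59 CPM in NcstnΔKC libraries, and did not pass (-1.75, adjusted p = 0.102, and -0.02 without normal replicate 2, adjusted p = 0.957). The 2 that rose were Prdm1 (1.38, adjusted p = 0.00892) and Sox21 (0.67, adjusted p = 0.0168), of which Sox21 turned to -0.51 when scaled to basal keratinocyte genes. Gata3, with the lowest p of the 16, was at 390, 336, 296 and 394 CPM against 142, 218, 161 and 183 CPM. Its change was -1.01 ± 0.17 (edgeR adjusted p = 0.00172), and normal replicate 4 was highest. Cux1 was at 180, 403, 174 and 172 CPM against 83.6 to 96.4 CPM. Its change was -1.37 ± 0.28 (adjusted p = 0.00493), and -0.91 without normal replicate 2 (adjusted p = 0.00102). Hoxc13, Lef1, Gata3 and Cux1 were above all NcstnΔKC libraries in every normal library, as were the 11 genes of the set named above.

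Of 20 further shaft and sheath proteins, 16 were highest in normal replicate 2 and 12 could be tested, with 2 lower and 2 higher. Tchhl1, a relative of trichohyalin, was at 1.97, 911, 0.565 and 10.2 CPM in normal libraries and 0.0691 to 0.42 CPM in NcstnΔKC libraries. Dsg4, the desmoglein of the hair cortex, was at 0.456, 198, 0.988 and 3.13 CPM against 0.0683 to 0.47 CPM. The metallothionein Mt4 fell by 5.10 ± 1.21 (edgeR adjusted p = 0.00908; -3.85 without normal replicate 2, adjusted p = 0.0229), and the calmodulin-like epidermal gene Calm4 rose by 2.61 ± 0.40 (adjusted p = 0.0013). In the fit without normal replicate 2, 2 were lower and 4 higher, and the median moved from -1.06 to 1.02. Tgm3 was among those 4, at 31.3, 122, 37.7 and 7.56 CPM in normal libraries and 56.6 to 150 CPM in NcstnΔKC libraries. Its change was 1.13 (edgeR adjusted p = 0.202), and 2.14 without normal replicate 2 (adjusted p = 0.0174). The 2 hair keratins outside the set, Krt39 and Krt40, were at 83.5 and 11.7 CPM in normal replicate 2 and at most 0.282 CPM elsewhere.

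Pigment genes followed in part. Of 14, 12 were highest in normal replicate 2, 8 were tested, 5 were lower and 1 was higher. Dct, a melanin enzyme, was at 19.7, 74.8, 9.88 and 19.2 CPM in normal replicates 1 to 4 and at 2.27, 2.46, 1.24 and 1.41 CPM in NcstnΔKC replicates 1 to 4, and fell by 4.05 ± 0.65 (edgeR adjusted p = 0.00165; -3.08 without normal replicate 2, adjusted p = 0.000778). Tyr, the first enzyme of melanin synthesis, was at 0.456, 11.7, 0.424 and 0.521 CPM against 0 to 0.478 CPM. Kit, the receptor of melanocytes and of mast cells, rose by 1.38 ± 0.27 (adjusted p = 0.00352). Of 18 growth signals, 16 were tested, 8 were lower and 1 higher (6 and 3 on total counts). The Hedgehog target Gli1 fell by 2.95 ± 0.39 (adjusted p = 0.000684), and Wnt10a rose by 3.01 ± 0.16 (adjusted p = 3.89e-05). Shh, secreted by the growing matrix, was at 0.152, 2.62, 0 and 0.261 CPM in normal libraries and at most 0.137 CPM in NcstnΔKC libraries.

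Genes of the bulge and resting follicle did not follow normal replicate 2. Of 13, all tested, 9 were lower and 0 higher in NcstnΔKC skin, with a median log2 change of -1.66, and 4 were highest in normal replicate 2. Without that library 10 were lower and the median was -1.52. Their summed level was 4180, 2370, 3160 and 3080 CPM in normal replicates 1 to 4 and 1190, 758, 615 and 617 CPM in NcstnΔKC replicates 1 to 4. Cd34, a surface marker of bulge cells, was at 279, 202, 211 and 193 CPM against 62.2, 75.3, 62.1 and 57.3 CPM, and fell by 1.78 ± 0.16 (edgeR adjusted p = 0.00013). Lhx2, a factor that maintains them, was at 53.4, 35.3, 31.8 and 47.8 CPM against 8.06, 2.80, 4.98 and 2.96 CPM, and fell by 3.17 ± 0.37 (adjusted p = 0.00037). Fgf18, a signal of the resting follicle, was lowest of the normal libraries in replicate 2, at 9.07 CPM, against 29.9, 16.8 and 12 CPM in the other 3, and fell by 3.99 ± 0.72 (adjusted p = 0.00263). Of 14 dermal papilla genes, 12 were tested, 4 were lower and 1 was higher. Scaled to total counts 2 were lower and 2 higher, and scaled to basal keratinocyte genes 9 were lower and 0 higher. Of all 15684 genes, 2224 were lower and 5323 higher under the first scaling, and 11451 and 338 under the second. Corin, made by the papilla of growing hair, was at 0, 11.3, 0.141 and 1.04 CPM in normal libraries and 0 to 0.273 CPM in NcstnΔKC libraries.

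**Figure D5:**
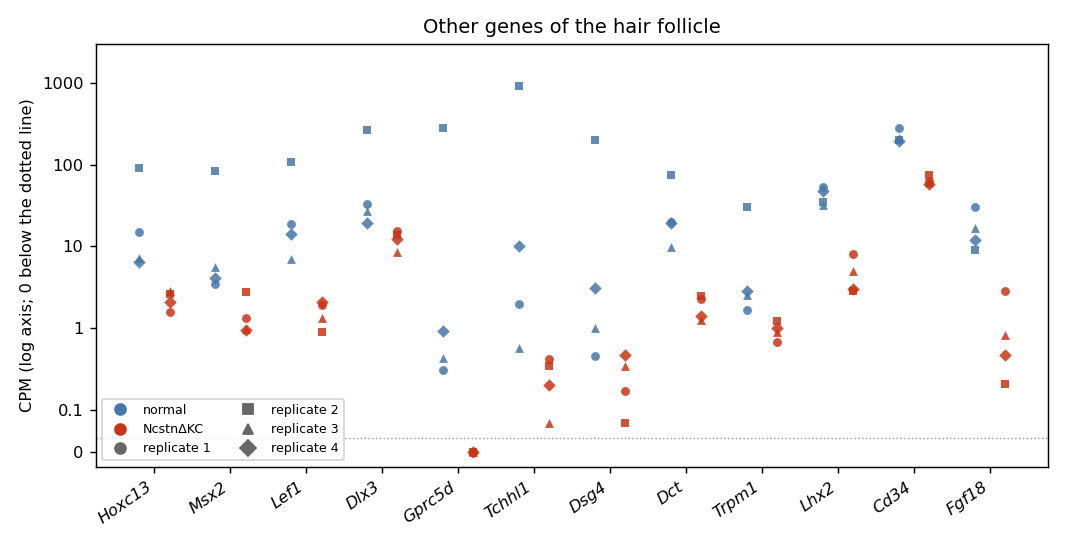
CPM on a log axis of 12 other follicle genes in the 8 libraries, normal in blue and NcstnΔKC in red, with the marker shape giving the replicate and 0 drawn below the dotted line. Squares of normal replicate 2 stand above the other normal libraries for Hoxc13, Msx2, Lef1, Dlx3, Gprc5d, Tchhl1, Dsg4, Dct and Trpm1, but not for Lhx2, Cd34 and Fgf18. Gata3, which was not highest in that library, is not shown.

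Markers of other skin cells also differed between the libraries, and their part in the values above was not tested. Skeletal muscle genes summed to 5120, 36100, 53500 and 44700 CPM in normal replicates 1 to 4 and to 4730, 367, 1290 and 1940 CPM in NcstnΔKC replicates 1 to 4, and 5 of 5 were lower. Adipocyte genes summed to 126, 330, 85.6 and 357 CPM in normal libraries and 11.3 to 103 CPM in NcstnΔKC libraries, and 3 of 4 were lower. Within the normal group the adipocyte sum was thus highest in replicates 4 and 2, the same libraries that were highest for the hair genes. All 5 basal keratinocyte genes were higher in NcstnΔKC skin, 4 of them under upper-quartile scaling and 1 when the libraries were scaled to these same genes (5300 to 6240 CPM summed in normal replicates 1, 3 and 4, 4980 in normal replicate 2, and 9370 to 13500 CPM in NcstnΔKC libraries). Suprabasal genes summed to 4020 to 9170 CPM in normal libraries and 2350 to 5330 CPM in NcstnΔKC libraries, and 2 of 4 were lower. Sebaceous gland genes summed to 75.8 to 393 CPM in normal libraries and 1.02 to 42.1 CPM in NcstnΔKC libraries, and 2 of 4 were lower.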

How the data were processed

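RNA from mouse whole skin was sequenced in 8 libraries, and the authors deposited for each of 34745 genes a raw count and an FPKM value per library. Per the submitters' processing notes, TopHat2 2.0.9, TopHat and HTSeq were used, and the builds mm10 and hg38 are named without a role. The annotation, the strand setting and the treatment of reads with several positions are not given in the sources used here. Gene coordinates are those of the deposited table. All 80 gene IDs occur in GENCODE M21 (GRCm38), 57 with the same coordinates, and 31-base stretches and codons were taken from it.

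Samples were grouped by their labels. Deposited counts were filtered with filterByExpr, scaled by TMM and fitted in edgeR 4.0.16 under R 4.3.3 (quasi-likelihood, robust, two-sided), with Benjamini-Hochberg adjustment over 15684 genes and a threshold of 0.05. Changes are NcstnΔKC over normal. The script was tested on simulated data. The authors' FPKM served for levels between genes and, with limma 3.58.1 on log2(FPKM + 1) or log2(FPKM + 0.1), as an alternative. Other alternatives were voom, DESeq2 1.42.0, other scalings and filters, a replicate block, and leaving out libraries. Python 3.11.15 made the tables and plots.

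The genes, lists and tests were chosen with earlier results of these data known. Named genes were Tchh, Padi3, all keratins of the set, the 12 Krtap genes of highest mean FPKM, those tested, and of each list those with the lowest p or needed to describe it. Krtap classes used at least 30% cysteine codons, else at least 25% glycine and tyrosine codons, limits set after values were seen. The remaining classified Krtap genes were called high-sulfur. The labels do not state that each library is a separate mouse, so p-values measure the spread between these samples, which may be technical.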

Additional observations from a re-analysis of the deposited data

Results flagged for a closer look

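In groups of 4 libraries, a library was taken to stand apart when the gap to its nearest neighbour, as a share of the group's whole range, passed Dixon's 95% critical value. For independent, normally distributed values chance gives this in about 1 of 20 groups, a rate that need not hold for counts such as these. Among 44 quantities looked at (named genes and class sums), normal replicate 2 stood apart as the highest normal library in all 44. The quantities are read from the same libraries and are not independent. The named Krtap genes were chosen by mean FPKM over all libraries, and most of their counts lie in normal replicate 2. For them, standing apart follows in large part from that choice. The keratins, Tchh and Padi3 were not chosen by level. The gap share was 0.855 for Krt75. The gap share was 0.967 for Krt74. The gap share was 0.977 for Krt36. It was 0.982 for Krt25. It was 0.985 for Krt27, Krt71 and Krt84. It was 0.986 for the sum of inner root sheath keratin. It was 0.989 for Krt32, Krt73 and Krtap4-1. A share of 0.99 held for Krtap4-2 and Tchh. A share of 0.991 held for the sum over the 80 genes, Krt26 and Padi3. A share of 0.992 held for the sum of ultra-high-sulfur Krtap. A share of 0.993 held for Krt28 and Krt83. A share of 0.994 held for Krt35. A share of 0.995 held for the sum of hair keratins (type I and II), the sum of type II hair keratin, Krt31, Krt34, Krt86 and Krtap3-2. A share of 0.996 held for the sum of type I hair keratin, Krt81 and Krtap8-1. A share of 0.997 held for the sum of Krtap genes, Krt33a, Krt72 and Krtap3-1. A share of 0.998 held for the sum of glycine-tyrosine Krtap, the sum of high-sulfur Krtap, Krt33b, Krt82, Krtap1-5, Krtap22-2 and Krtap7-1. A share of 0.999 held for Krtap15 and Krtap9-3. A share of 1.0 held for Krtap14 and Krtap19-5.

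NcstnΔKC replicate 1 stood apart as the highest of its group for 6 quantities: the sum of Krtap genes (gap share 0.947, 6.71 CPM), the sum of high-sulfur Krtap (gap share 0.947, 6.71 CPM), the sum of type I hair keratin (gap share 0.897, 2.18 CPM), Krt32 (gap share 0.94, 1.34 CPM), Krt33a (gap share 1.0, 0.755 CPM) and Krtap3-2 (gap share 0.932, 6.13 CPM). The same library held 42.1 CPM of sebaceous gland genes against 1.02 to 1.66 CPM in the other 3, and 103 CPM of adipocyte genes against 11.3 to 52.0 CPM. The part of these cells in its hair gene values was not tested.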

How the results depend on the processing

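The 5 genes called lower became 0 with limma-voom, 1 with the DESeq2 Wald test (where 5 of the 6 tested genes had no adjusted p), 1 on log2(FPKM + 1), 3 on log2(FPKM + 0.1) and 0 in the 4 libraries without Xist, where 1 of all 15668 genes was lower and 3 higher. Leaving out 1 library gave 3 to 10, with 3 without normal replicate 2 and 10 without normal replicate 3. In the fit without normal replicate 3, 11 of the set were tested, and 2841 of all 16326 genes were lower. The count of genes called higher was 0 to 1 when 1 library was left out. The 11 genes without overlap became 9 to 14 under other scalings, 11 to 34 when 1 library was left out, 17 in the 4 libraries with Xist (15 lower and 2 higher, against 33.3% and 30.2% of all genes) and 37 in the 4 without (all lower, against 25.6%). Krt84 reversed to 0.83 with voom, 0.02 and 0.74 with FPKM and pseudocounts of 1 and 0.1, 1.07 in the libraries with Xist, -2.56 to 2.60 when 1 library was left out (2.60 without normal replicate 2), and 2.62 without that library and NcstnΔKC replicate 1. The causes were not tested. The median change of all tested genes was 0.29 on total counts, -1.24 when scaled to basal keratinocyte genes and 0.20 to 0.28 on FPKM, against -0.02. Tchh, Krt28, Krt32, Krtap3-2 and Krt75 kept their direction in every alternative that gave them a value. Tchh missed the threshold with voom (-6.16, adjusted p = 0.089), in the libraries with Xist (-5.08, adjusted p = 0.0842) and in those without (-11.63, adjusted p = 0.126). With the replicate block 1 gene was called lower (Krt28) and Krt84 was at 0.24. Replicate numbers share no stated origin, and deviations from the group means correlated by -0.02, -0.03, -0.01 and 0.22 for numbers 1 to 4, so they were not taken as pairs. Depth limits the NcstnΔKC values, where most genes had under 3 counts in a library.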
